A study of Homo sapiens with 6 samples.

Results

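Carbonyl and enone detoxification enzymes were followed in U251 cells, a human glioma cell line, after 24 h with 6-shogaol at a labelled 60 μm (read here as micromolar) and in cells kept without it for the same time. The 10 genes were the rows of the deposited table of 60612 genes whose symbol was AKR1B1, AKR1B10, AKR1C1, AKR1C2, AKR1C3, CBR1, CBR3, PTGR1, GSTP1 or EPHX1. They were chosen by name and function, with earlier results of these data known. RNA sequencing gave 3 libraries of 6-shogaol cells and 3 of control cells. All 6 libraries carry the genotype label WT and come from the same line grown in serum-containing medium. Whether the replicates came from separate cultures is not stated in the labels, so the p-values below reflect library-to-library spread that could be purely technical.

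6-shogaol, a pungent constituent of dried ginger, is an enone: a ketone next to a carbon-carbon double bond that reacts with thiols. Cells handle such compounds, and the aldehydes and enones that arise from oxidised lipids, along a few routes. Aldo-keto reductases (AKR) and carbonyl reductases (CBR) use NADPH to turn the carbonyl into an alcohol, the alkenal reductase PTGR1 reduces the double bond, glutathione transferases add glutathione, and epoxide hydrolases open epoxides with water. Several of these genes, among them AKR1B10, AKR1C1, AKR1C2, AKR1C3 and PTGR1, are known in human cells as targets of NRF2, the transcription factor that is set free when electrophiles modify its inhibitor KEAP1.

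The libraries held between 43516840 and 60018999 counts. Transcripts of neural progenitor and mesenchymal type marked the line, and among VIM, NES, SOX2 and CD44 only NES was called between the groups. VIM stood at 941 to 1604 FPKM with 6-shogaol and 1110 to 1135 in controls, NES at 81.3 to 101.5 and 116 to 117, and SOX2 at 81.4 to 87.1 and 97.7 to 109.7. CD44 lay the other way, at 23.2 to 26.4 FPKM with 6-shogaol and 19.6 to 20.7 FPKM in controls. It was not called (log2 fold change 0.25, edgeR adjusted p = 0.12). The astrocyte marker GFAP was low, at 0.616 to 0.692 FPKM with 6-shogaol and 1.78 to 2.51 FPKM in controls. Of 23 cell type markers 19 were tested, and 3 fell by edgeR: GFAP (log2 fold change -1.62, adjusted p = 0.00655), NES (-0.42, adjusted p = 0.0484) and the endothelial CDH5 (-1.77, adjusted p = 0.0192), which stood at 0.0705 to 0.113 FPKM with 6-shogaol and 0.304 to 0.342 FPKM in controls. SOX2 did not pass (log2 fold change -0.33, adjusted p = 0.0646). Of all genes tested 1.71% were called lower. Groups did not overlap for 3 markers that were higher (CD44, SYT1 and CD68) and 8 that were lower with 6-shogaol, against 14.0% and 13.9% of all genes tested. The differences of the members below stand beside differences in these markers, whose part in them was not tested. PTPRC and AIF1 of leukocytes, MOG of oligodendrocytes and PECAM1 of endothelium stayed at or below 0.0251 FPKM. CD68, also listed for leukocytes, did not: it stood at 6.24 to 11.06 FPKM with 6-shogaol and 4.903 to 5.725 FPKM in controls. Its log2 fold change was 0.73 (edgeR adjusted p = 0.117). Transcripts of hepatocytes, a cell type rich in many detoxification enzymes though not in every member, varied between libraries without following the groups. ALB stood at 5.26, 0.747 and 0.712 FPKM in 6-shogaol replicates 1, 2 and 3 and at 0.0177, 0.527 and 5.67 FPKM in control replicates 1, 2 and 3. A sum over 15 hepatocyte transcripts was 36.2, 3.24 and 4.99 FPKM with 6-shogaol and 9.72, 3.51 and 16.5 FPKM in controls. Single transcripts weighed heavily in some sums. TTR gave 9.26 FPKM of the sum in control replicate 1 and 2.35 FPKM of that in 6-shogaol replicate 3. APOA2 gave 16.7 FPKM of the sum in 6-shogaol replicate 1. 6-shogaol replicate 1 and control replicate 3 also stood apart on principal component 2, at 61.8 and 22.6, with the other libraries between -33.9 and -1.15. The part of these transcripts in the results was not tested, and the estimate without both libraries is given below for each member.

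None of the 10 transcripts passed the test over all genes. All 10 were among the 19279 genes tested, and edgeR's quasi-likelihood test with Benjamini-Hochberg adjustment called 0 of them at an adjusted p under 0.05, against 3.38% of all genes (1.67% higher and 1.71% lower). Of the members, 1 was higher and 2 were lower at an unadjusted p under 0.05, against 10.4% and 9.95% of all genes. With DESeq2 1 member, AKR1C3, was called lower, as were 4.84% of all genes. Limma on log2(FPKM + 1) also called AKR1C3 lower, with 2.32% of the 12591 genes that passed its filter, and limma on log2(FPKM + 0.1) called 0 members. The log2 fold changes of the members ran from -0.32 to 0.53 with a median of 0.16, and the median over all genes tested was -5.32e-05. For 9 of the 10 members the 95% interval of the change lay within 2-fold either way, AKR1B10 being the exception. These intervals are per gene and are not adjusted for the number of genes. Groups did not overlap for 7 of the 10 members, 5 higher and 2 lower, against 27.9% of all genes tested (14.0% higher and 13.9% lower).

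**Figure D1:**
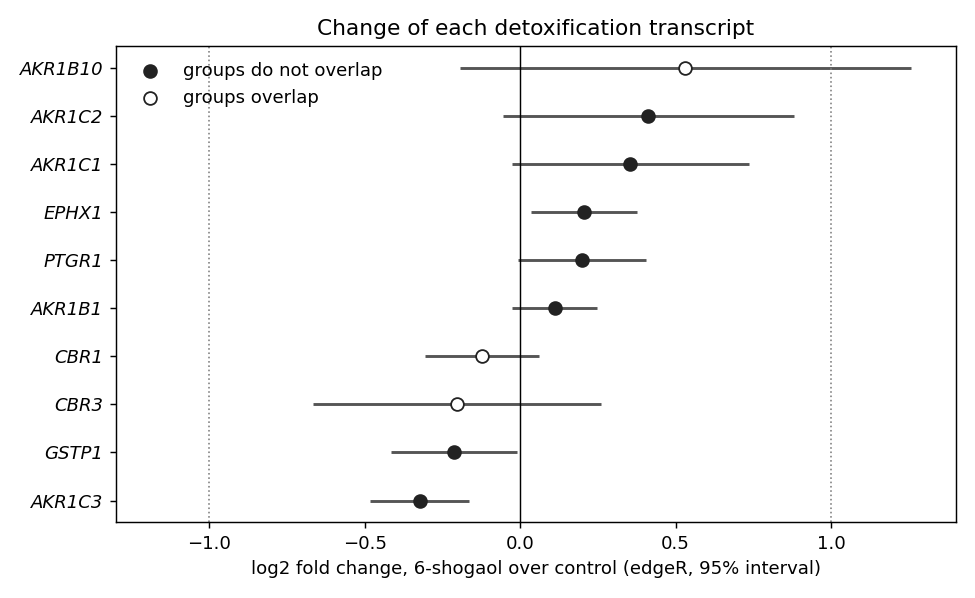
Log2 fold change of each of the 10 transcripts, 6-shogaol over control, with its 95% interval from edgeR (3 libraries per group). Filled points are transcripts whose groups do not overlap in CPM, open points those whose groups overlap, and dotted lines mark 2-fold. The points run from -0.32 for AKR1C3 to 0.53 for AKR1B10, whose interval is the widest.

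Per length, the transcripts spanned a wide range of levels. FPKM (fragments scaled by gene length and library size, as the authors deposited it) put EPHX1 first with 6-shogaol at 115 ± 6.23 and GSTP1 second at 104 ± 1.97 (mean ± SD, n = 3 in each group). In controls GSTP1 came first at 118 ± 11.6 and EPHX1 second at 98.4 ± 5.31 FPKM. AKR1B1 came next in both groups, at 43.3 ± 1.87 FPKM with 6-shogaol and 39.5 ± 1.14 FPKM in controls. CBR1 followed it, at 18.6 ± 1.19 FPKM with 6-shogaol and 19.9 ± 1.08 FPKM in controls. PTGR1 and AKR1C3 came after CBR1 and changed places between the groups, and CBR3 lay below them at 5.02 ± 1.06 FPKM with 6-shogaol and 5.68 ± 0.941 FPKM in controls. The lowest levels were those of AKR1C1 (1.21 ± 0.216 FPKM with 6-shogaol and 0.932 ± 0.105 FPKM in controls), AKR1B10 (0.562 ± 0.109 FPKM with 6-shogaol and 0.384 ± 0.0721 FPKM in controls) and AKR1C2 (0.456 ± 0.0699 FPKM with 6-shogaol and 0.336 ± 0.0457 FPKM in controls). AKR1B10 and AKR1C2 overlapped in both groups, so their order is not set.

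These levels rest on the gene lengths behind the deposited FPKM. Counts, totals and FPKM together imply lengths from 1176 to 1185 bases for CBR3 up to 10328 to 10439 bases for AKR1C1, whose coding sequence in GENCODE 29 has 969 bases. With the principal coding transcript of GENCODE 29 as the length, GSTP1 stood above EPHX1 and PTGR1 above AKR1C3 in both groups, and AKR1C2 above AKR1B10. The order of the other members was the same by either length. That principal transcript is itself long for AKR1C1 (6705 bases) and AKR1C2 (3756 bases), each with 969 coding bases. In CPM (counts scaled to library size, not to length) AKR1C1 stood above CBR3. The values were 12.5 against 5.87 with 6-shogaol and 9.76 against 6.77 in controls. The place of AKR1C1 below CBR3 therefore depends on the length used.

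**Figure D2:**
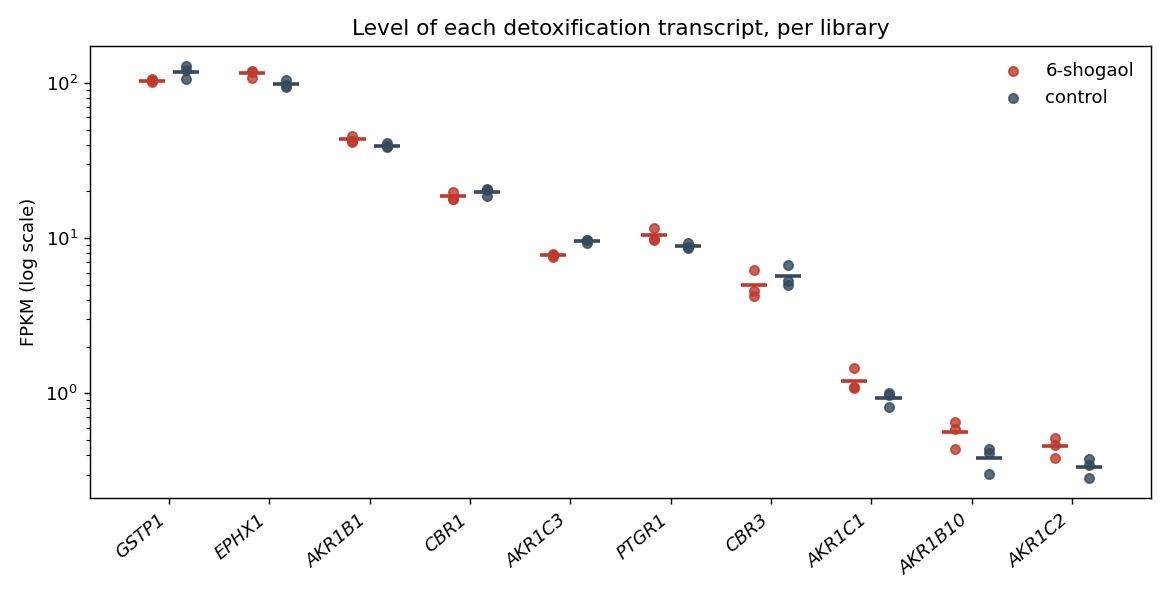
FPKM on a log scale for the 10 transcripts in each library, ordered by their control mean. Red points (left of each pair) are the 3 6-shogaol libraries, dark points the 3 control libraries, and bars are means. EPHX1 and GSTP1 lie near 100 FPKM, and AKR1B10 and AKR1C2 below 1 FPKM.

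The AKR1C reductases are near copies of each other, neighbours on chromosome 10 that reduce ketosteroids, prostaglandins and enone-derived carbonyls. In GENCODE 29 the coding sequences of AKR1C1 and AKR1C2 differ at 19 of 969 bases (98.0% identity), those of AKR1C1 and AKR1C3 at 83 (91.4%) and those of AKR1C2 and AKR1C3 at 87 (91.0%). The stretch of 90 coding bases with the most differences between AKR1C1 and AKR1C2, bases 73 to 162, is shown because it holds 10 of the 19. Capitals mark positions at which any of the 3 genes differs.
AKR1C1: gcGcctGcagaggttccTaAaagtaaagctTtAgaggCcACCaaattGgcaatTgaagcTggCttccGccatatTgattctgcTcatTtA
AKR1C2: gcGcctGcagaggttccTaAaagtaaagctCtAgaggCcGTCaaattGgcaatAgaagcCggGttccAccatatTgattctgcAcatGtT
AKR1C3: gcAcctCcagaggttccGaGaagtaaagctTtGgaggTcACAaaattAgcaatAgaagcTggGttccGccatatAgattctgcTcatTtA
Of all 50-base windows in the coding sequence, 54.3% of those of AKR1C1, 57.1% of those of AKR1C2 and 23.0% of those of AKR1C3 occur unchanged in a transcript of another gene. With 100-base windows the shares were 20.7%, 26.4% and 9.77%. How the authors counted reads that match more than 1 gene is not given in the sources used here, so the division of counts between AKR1C1 and AKR1C2 is uncertain.

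AKR1C3, which encodes the type 5 17-beta-hydroxysteroid dehydrogenase and prostaglandin F synthase, was the most abundant of the family and the member closest to a call. It lies at chromosome 10, 5035354 to 5107680, plus strand, in the deposited annotation, whose coordinates fit GRCh38. Its level in CPM (counts scaled to library size with edgeR's TMM factors) was 35.9, 36.6 and 34.96 with 6-shogaol, against 43.8, 45.5 and 45.1 in controls. All 3 6-shogaol libraries lay below all 3 controls, and the spread within each group was under 1 CPM (SD 0.815 with 6-shogaol and 0.876 in controls, n = 3). The log2 fold change was -0.32 (SE 0.07, edgeR adjusted p = 0.0529), that is 0.80-fold with a 95% interval of 0.716 to 0.893, and it was also -0.32 without 6-shogaol replicate 1 and control replicate 3 (edgeR adjusted p = 0.113). AKR1C3 was called under 4 of 15 alternatives. They were DESeq2 (adjusted p = 0.00392), the filter of 1 CPM in 3 libraries with edgeR (adjusted p = 0.0372), and limma on log2(FPKM + 1) with and without a filter (adjusted p = 0.0499 and 0.0289). With the 1 CPM filter 2.94% of the 14811 genes tested were called lower. With limma the shares were 2.32% of 12591 genes with its filter and 0.746% of 32031 genes without. The adjusted p of AKR1C3 over all 15 ran from 0.00392 to 0.189.

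AKR1C1 and AKR1C2 had positive log2 fold changes that did not pass the test. AKR1C1, the 20-alpha-hydroxysteroid dehydrogenase that inactivates progesterone (chromosome 10, 4963253 to 4983283, plus strand), stood at 11.03, 11.3 and 15.1 CPM with 6-shogaol and at 10.6, 8.54 and 10.2 CPM in controls. The groups did not overlap, with 6-shogaol replicate 3 well above the other 5 libraries. The log2 fold change was 0.35 (SE 0.16, edgeR adjusted p = 0.276), with a 95% interval from 0.982-fold to 1.67-fold. Without 6-shogaol replicate 3 it was 0.20 (edgeR adjusted p = 0.585), and without 6-shogaol replicate 1 and control replicate 3 it was 0.46 (edgeR adjusted p = 0.284). AKR1C2, the type 3 3-alpha-hydroxysteroid dehydrogenase, which reduces dihydrotestosterone (4987400 to 5017955, minus strand), stood at 3.88, 2.95 and 3.56 CPM with 6-shogaol and at 2.22, 2.94 and 2.63 CPM in controls. The lowest 6-shogaol library and the highest control differed by little, in 148 and 172 counts of libraries of unequal size. Its log2 fold change was 0.41 (SE 0.20, edgeR adjusted p = 0.303), with a 95% interval from 0.962-fold to 1.84-fold, and 0.33 without 6-shogaol replicate 1 and control replicate 3 (edgeR adjusted p = 0.535).

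Within a library the AKR1C transcripts can be set against each other without any scaling between libraries. AKR1C3 took 70.7%, 71.9% and 65.2% of the counts of the 3 genes with 6-shogaol and 77.4%, 79.8% and 77.9% in controls. AKR1C1 took 21.7%, 22.3% and 28.1% with 6-shogaol and 18.7%, 15.0% and 17.6% in controls. The count of AKR1C1 and AKR1C2 together does not depend on how reads were divided between that pair, if each shared read was counted once. That count was 0.415, 0.391 and 0.534 of the AKR1C3 count with 6-shogaol and 0.292, 0.252 and 0.284 of it in controls. Reads shared with AKR1C3 could still move this ratio, as 23.0% of the 50-base coding windows of AKR1C3 occur in other genes. Both the shares and this ratio separated the groups. This follows from the single genes, as AKR1C1 and AKR1C2 lay higher and AKR1C3 lower in every 6-shogaol library, and adds no separate evidence. Summed over the 3 genes the level was 50.8, 50.9 and 53.6 CPM with 6-shogaol and 56.6, 56.9 and 57.9 CPM in controls. These ratios were chosen after the values were seen and are given without a test.

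The AKR1B reductases differ strongly in level, and their coding sequences are 75.8% identical. AKR1B1, aldose reductase, which turns glucose into sorbitol and also reduces lipid aldehydes (chromosome 7, 134442356 to 134459284, minus strand), stood at 191, 183 and 183 CPM with 6-shogaol and at 170, 169 and 176 CPM in controls. The groups did not overlap, but the difference was small, 0.11 on the log2 scale (SE 0.06, edgeR adjusted p = 0.339) with a 95% interval from 0.983-fold to 1.19-fold. Without 6-shogaol replicate 1 and control replicate 3 it was 0.10 (edgeR adjusted p = 0.32). AKR1B10, which reduces retinaldehyde and enone aldehydes and is known from the gut and from liver tumours (chromosome 7, 134527567 to 134541412, plus strand), was barely detected. Its counts were 69, 47 and 60 in the 6-shogaol libraries and 45, 55 and 38 in the controls, or 1.22, 0.937 and 1.38 CPM with 6-shogaol and 0.871, 0.941 and 0.633 CPM in controls. The groups overlapped, 6-shogaol replicate 2 lying below control replicate 2. Its log2 fold change was 0.53 (SE 0.31, edgeR adjusted p = 0.394), and 0.35 without control replicate 3 and 6-shogaol replicate 1 (edgeR adjusted p = 0.65). With all libraries it has a 95% interval from 0.875-fold to 2.39-fold, so that at this depth neither no change nor a change of 2-fold can be told from the estimate. Of its 50-base coding windows 28.5% occur in other genes, mainly AKR1B15, which averaged 0.5 counts per library. The count of AKR1B10 was between 0.00513 and 0.00754 of that of AKR1B1 with 6-shogaol and between 0.0036 and 0.00556 in controls.

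The carbonyl reductases CBR1 and CBR3 lie side by side on chromosome 21 and are 77.0% identical in coding sequence. CBR1, an NADPH-dependent reductase of quinones, prostaglandins and anthracycline drugs (36069941 to 36073166, plus strand), stood at 56.3, 52.2 and 51.7 CPM with 6-shogaol and at 59.7, 60.6 and 54.1 CPM in controls. 6-shogaol replicate 1 lay above control replicate 3, so the groups overlapped, and the log2 fold change was -0.12 (SE 0.08, edgeR adjusted p = 0.444). Without control replicate 3 and 6-shogaol replicate 1, the libraries with the most ALB, it was -0.22 (edgeR adjusted p = 0.161). CBR3, its less active relative (36135079 to 36146562, plus strand), stood at 7.17, 5.44 and 5.01 CPM with 6-shogaol and at 8.07, 6.36 and 5.87 CPM in controls. The groups overlapped, and replicate 1 was the highest library in each. Its log2 fold change was -0.20 (SE 0.20, edgeR adjusted p = 0.627), and -0.47 without those libraries (edgeR adjusted p = 0.253). Single libraries moved it both ways, to -0.37 without 6-shogaol replicate 1, to -0.10 without 6-shogaol replicate 3 and to -0.06 without control replicate 1 (edgeR adjusted p = 0.303, 0.881 and 0.931). The CBR3 count was 0.127, 0.104 and 0.0968 of the CBR1 count in the 6-shogaol libraries and 0.135, 0.105 and 0.109 of it in the controls, so this ratio overlapped. In GENCODE 29, CBR3 shares 42.2% of its exon length with the antisense gene CBR3-AS1, and the strand used in counting is not given in the sources used here.

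PTGR1 encodes the reductase that saturates the double bond of alkenals and enones and also inactivates leukotriene B4. It lies at chromosome 9, 111549722 to 111599835, minus strand. Its level was 50.8, 43.6 and 44.1 CPM with 6-shogaol, against 39.3, 42.2 and 39.2 CPM in controls. All 6-shogaol libraries lay above all controls, with 6-shogaol replicate 1 the highest and the other 6-shogaol libraries close to control replicate 2. The log2 fold change was 0.20 (SE 0.09, edgeR adjusted p = 0.258), with a 95% interval from 0.996-fold to 1.32-fold. It was 0.13 without 6-shogaol replicate 1 (edgeR adjusted p = 0.37) and 0.10 without 6-shogaol replicate 1 and control replicate 3 (edgeR adjusted p = 0.502). In FPKM, PTGR1 was 1.47, 1.24 and 1.31 times AKR1C3 within the 6-shogaol libraries and 0.931, 0.962 and 0.903 times AKR1C3 within the controls. That this ratio separated the groups follows from the single genes, whose groups lay apart in opposite directions. Which of them stands higher in controls depends on the length used. With the principal coding transcript as the length, PTGR1 stood above AKR1C3 in both groups.

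GSTP1 and EPHX1, the most abundant members, had log2 fold changes of opposite sign, and neither passed the test. GSTP1, the pi class transferase that joins electrophiles to glutathione (chromosome 11, 67583742 to 67586656, plus strand), stood at 213.8, 219.01 and 210.5 CPM with 6-shogaol and at 269, 258 and 219.3 CPM in controls. Control replicate 3 lay only just above 6-shogaol replicate 2, while the other controls were well apart. The log2 fold change was -0.21 (SE 0.09, edgeR adjusted p = 0.222), with a 95% interval from 0.749-fold to 0.992-fold. Without control replicate 3 it was -0.30 (edgeR adjusted p = 0.118), and without control replicate 3 and 6-shogaol replicate 1 it was also -0.30 (edgeR adjusted p = 0.0821).

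EPHX1, the microsomal epoxide hydrolase (chromosome 1, 225810092 to 225845559, plus strand), stood at 345, 353 and 319 CPM with 6-shogaol and at 312, 292 and 277 CPM in controls. The groups did not overlap, with 6-shogaol replicate 3 and control replicate 1 close together. Its log2 fold change was 0.21 (SE 0.07, edgeR adjusted p = 0.17), with a 95% interval from 1.03-fold to 1.30-fold, and 0.15 without 6-shogaol replicate 1 and control replicate 3 (edgeR adjusted p = 0.334). In FPKM the ratio of EPHX1 to GSTP1 within a library was 1.14, 1.13 and 1.07 with 6-shogaol and 0.816, 0.798 and 0.890 in controls. Every 6-shogaol library thus held more EPHX1 than GSTP1 per deposited length, and every control less. With the principal coding transcript as the length, GSTP1 stood above EPHX1 in both groups. That the ratio separated the groups follows from the single genes, whose groups lay apart in opposite directions. In bulk RNA, a change in the transcript per cell and a change in the mix of cells cannot be told apart.

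**Figure D3:**
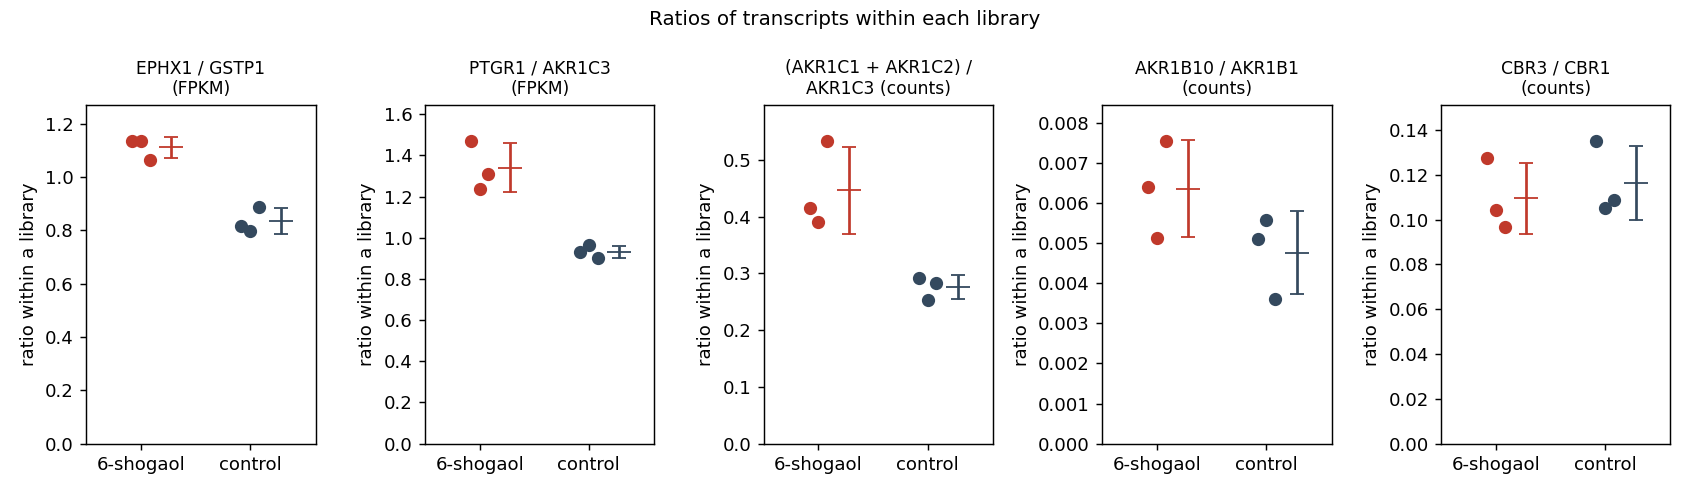
Ratios of transcripts within each library for EPHX1 over GSTP1 and PTGR1 over AKR1C3 (from FPKM) and for AKR1C1 plus AKR1C2 over AKR1C3, AKR1B10 over AKR1B1 and CBR3 over CBR1 (from counts), all chosen after the values were seen. Red points are the 3 6-shogaol libraries and dark points the 3 controls, and the bars beside them give the mean and SD. In the first 3 panels the 6-shogaol libraries lie above the controls, at a mean of 1.11 against 0.835 for EPHX1 over GSTP1. In those panels this follows from single genes whose groups lay apart in opposite directions. In the remaining panels the groups overlap.

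Promoter sequences were searched for the letters of the antioxidant response element, the site that NRF2 binds with small MAF proteins. RefSeq promoters (GRCh38.p14, 250 bases before to 50 after a start) were at hand for 8 of the 10 members, with more than 1 start for EPHX1, AKR1B1 and AKR1C3. The core TGACNNNGC, searched on both strands, occurred in 3 of the 12 promoters of these genes, 1 each for 3 of the 8, and in 13.3% of all 35116 promoters. The 3 matches are shown because they are the only ones among the members, each with 10 bases on either side and the core in capitals.
GSTP1: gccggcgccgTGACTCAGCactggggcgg
EPHX1: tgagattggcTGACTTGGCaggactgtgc
CBR1: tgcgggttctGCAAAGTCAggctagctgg
In GSTP1 the core begins at position -66, counted from the annotated start (chr11:67583736-67583764, plus strand), and overlaps the only match among the members to the AP-1 site TGACTCA, which 4.95% of all promoters hold. In EPHX1 it belongs to 1 of 3 starts, a downstream one inside the gene (chr1:225825266-225825294, plus strand), at position -78 from that start. In CBR1 the core lies on the opposite strand (chr21:36069855-36069883, shown on the plus strand), at position -159. None of these 3 genes passed the test, and GSTP1 and CBR1 had negative log2 fold changes while EPHX1 had a positive one. The 250 bases upstream of AKR1C1 and AKR1C2 are 96.5% identical, and those of AKR1C1 and AKR1C3 70.7%. No match in these windows says nothing about sites farther away.

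Other enzymes that handle aldehydes, ketones, epoxides and glutathione conjugates were counted in lists by family. The 8 lists also hold relatives of these enzymes and 11 regulators of the NRF2 pathway, so the pooled shares are not for enzymes alone. Of 127 listed genes 105 were tested, and 4 rose and 1 fell (4.76%, against 3.38% of all genes). Their median log2 fold change was -0.01, and 35.2% had groups that did not overlap, against 27.9% of all genes. Among 16 aldehyde dehydrogenases, which oxidise aldehydes to acids, 2 rose. ALDH1A3, which makes retinoic acid and is known as a marker of mesenchymal glioma cells, stood at 80.4, 86.3 and 80.2 CPM with 6-shogaol and at 58.8, 56.3 and 63.8 CPM in controls (log2 fold change 0.47, edgeR adjusted p = 0.0283), and 27.5% of its exon length is shared with a counted antisense gene. ALDH1L2, a mitochondrial enzyme of folate metabolism, stood at 6.18, 6.44 and 6.59 CPM with 6-shogaol and at 3.54, 2.58 and 3.57 CPM in controls (log2 fold change 0.99, edgeR adjusted p = 0.0351). The median over the aldehyde dehydrogenases was -0.11, with 10 of 16 below 0. For both called genes the groups were well apart.

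Among 7 tested aldo-keto reductases outside the members 1 rose, KCNAB2, a potassium channel subunit with the fold of this family, at 17.4, 16.8 and 17.8 CPM with 6-shogaol and 10.2, 11.3 and 12.3 CPM in controls (log2 fold change 0.62, edgeR adjusted p = 0.0343). GSTCD, a protein with a transferase-like domain, was the 1 of 20 other glutathione transferases and related genes that rose, at 31.8, 37.8 and 38.8 CPM with 6-shogaol and 22.1, 25.9 and 23.1 CPM in controls (log2 fold change 0.61, edgeR adjusted p = 0.0358). Of 35 short-chain and medium-chain reductases 1 fell, the quinone oxidoreductase TP53I3, at 13.6, 9.31 and 10.6 CPM with 6-shogaol and 20.6, 17.8 and 23.2 CPM in controls (log2 fold change -0.88, edgeR adjusted p = 0.0438). Each of the 5 called genes had groups that did not overlap, which selection by this test favours, so it adds no separate support. When 1 library was left out in turn, ALDH1A3, ALDH1L2, KCNAB2, GSTCD and TP53I3 each passed only without 6-shogaol replicate 1, with adjusted p up to 0.123, 0.118, 0.13, 0.127 and 0.154 in the other fits. None of the 5 passed without both 6-shogaol replicate 1 and control replicate 3 (edgeR adjusted p from 0.0582 to 0.0962).

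In edgeR's test no gene was called among 4 epoxide hydrolases, 10 genes of glyoxal and formaldehyde detoxification, 2 alcohol dehydrogenases and 11 regulators of the NRF2 pathway. Without adjustment, p lay under 0.05 for 0 epoxide hydrolases, for 1 higher and 2 lower genes of glyoxal and formaldehyde detoxification, for 0 alcohol dehydrogenases and for 3 higher NRF2 regulators, against 10.4% higher and 9.95% lower over all genes. ADH5, which oxidises the glutathione adduct of formaldehyde, had a log2 fold change of -0.28 (edgeR adjusted p = 0.0998) and was called only by DESeq2 (adjusted p = 0.0315). EPHX4 had the largest value among epoxide hydrolases at 0.15 (edgeR adjusted p = 0.598), which was 0.06 without 6-shogaol replicate 2 and 0.09 without control replicate 1. MAFG, a small MAF partner of NRF2, had the largest value among the regulators, 0.57 (edgeR adjusted p = 0.484), and control replicate 3 alone stood apart. Its level was 115, 106 and 112 CPM with 6-shogaol and 93.5, 100.7 and 29.6 CPM in controls, and without control replicate 3 its log2 fold change was 0.19.

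**Figure D4:**
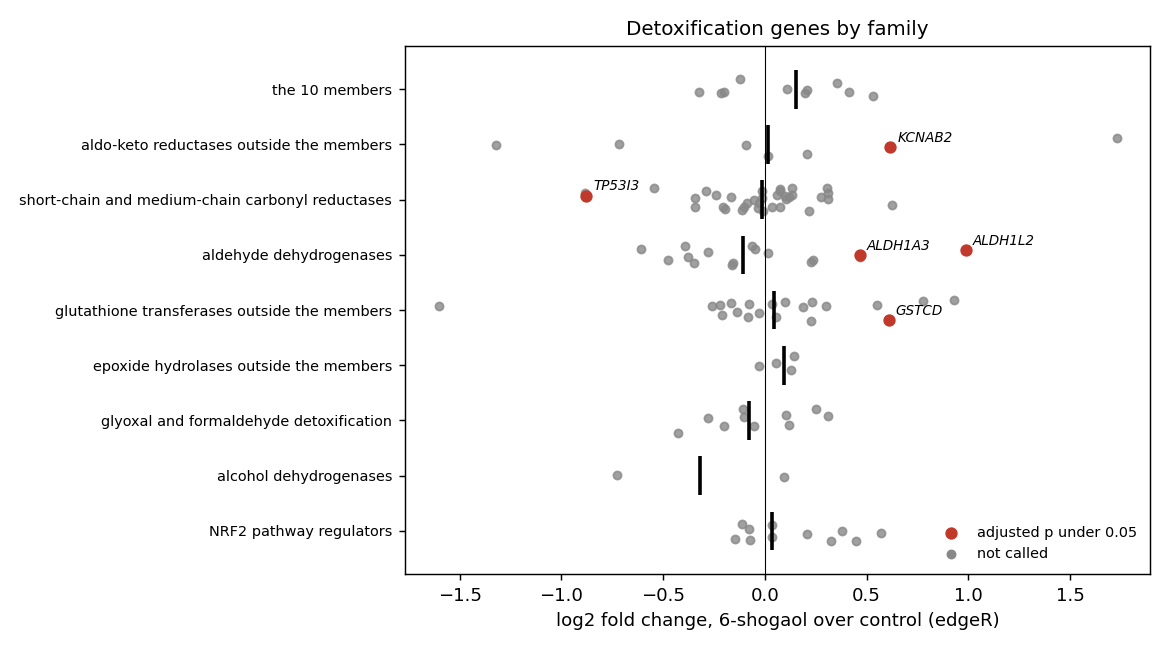
Log2 fold change, 6-shogaol over control (edgeR), of each tested gene in the 10 members and in 8 lists of related enzymes and regulators. Red points passed an adjusted p under 0.05 and are named, grey points did not, and black bars are medians. The 5 red points are KCNAB2, TP53I3, ALDH1A3, ALDH1L2 and GSTCD, and none lies among the 10 members.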

How the data were processed

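RNA-seq of U251 cells gave 6 libraries, grouped by their titles. The authors deposited raw counts per gene, 1 column per library, and FPKM values per the file headers. Aligner, counter and strandedness are not given in the sources used here. The submitters' processing notes name mouse builds, while the identifiers are human and the coordinates fit GRCh38. Log2 values in the text were computed from the deposited tables.

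Tests used edgeR 4.0.16 in R 4.3.3 on the counts (filterByExpr, TMM, glmQLFit and glmQLFTest, Benjamini-Hochberg over 19279 genes, threshold 0.05). The step was first tested on simulated counts. Standard errors were derived from the F statistic, and 95% intervals use the moderated degrees of freedom. A count of 0 allows up to 3 counts, or 0.05 to 0.0689 CPM by library (counting error only). The common biological coefficient of variation was 25.3%. Alternatives were RLE scaling, DESeq2 1.42.0, other filters, a replicate block, each library left out, and limma 3.58.1 on log2(FPKM + 1) or log2(FPKM + 0.1), limited, except in 1 alternative, to genes at 1 FPKM or more in 3 libraries. A fold on that scale understates the change of low genes.

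Members and lists were chosen with earlier results of these data known. All 10 members were named. Of each list, called genes (at most 6) and the gene with the largest change at a mean of at least 5 CPM were named. The hepatocyte list and the ratios within a library were added after the data were seen. Coding sequences and exon overlap (neighbours averaging 10 counts or more) came from GENCODE 29, using each gene's principal transcript. Promoters came from RefSeq. 1 listed gene had no row in the table used here. Chi-square values between replicates were 34.4 to 70.8 per degree of freedom, far above the value near 1 that copies of a library would give.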

Additional observations from a re-analysis of the deposited data

How the results depend on the processing

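No member changed the sign of its log2 fold change under any alternative that gave a value, and of 145 such values 141 left the member on the same side of the threshold. The other 4 were the calls of AKR1C3. Members called lower were 1 with DESeq2, with the filter of 1 CPM and with limma on log2(FPKM + 1) with and without a filter, against 0 in the main test. Members called higher were 0 throughout. On the log2(FPKM + 1) scale, which understates low genes, AKR1C1 was at 0.19 and, with no filter, AKR1B10 at 0.17, AKR1C2 at 0.12, ALDH1L2 at 0.29 and KCNAB2 at 0.26. Over all genes 322 were called higher and 329 lower, against 932 and 934 with DESeq2, 183 and 195 with no filter, and 421 and 435 with the filter of 1 CPM. Limma with no filter called 352 higher and 239 lower, a more uneven split. Leaving out 1 library gave 44 to 480 higher and 54 to 532 lower, and leaving out control replicate 3 and 6-shogaol replicate 1, an alternative chosen after seeing the data, gave 119 and 138. The counts were highest without 6-shogaol replicate 1, which differed most from the others of its group.

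In the wider lists 4 were called higher and 1 lower. DESeq2 called 5 and 8, the filter of 1 CPM 4 and 2, no filter 2 and 0, limma on log2(FPKM + 1) 2 and 1, limma on log2(FPKM + 0.1) 2 and 0, limma with no filter 3 and 0, and leaving out 1 library 0 to 4 higher and 0 to 2 lower. Without control replicate 3 and 6-shogaol replicate 1 these counts were 0 and 0. The cause was not tested, and fits with fewer libraries have fewer degrees of freedom.

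Replicate numbers gave no sign of pairing, which does not settle whether the samples were paired. Deviations of same-numbered libraries from their group means correlated at -0.03, 0.06 and -0.04. Pairs with unlike numbers ran from -0.06 to 0.09, the highest being 6-shogaol replicate 1 with control replicate 3. With the replicate number as a block, 3 genes were called higher and 0 lower over all genes, and 0 members and 0 and 0 genes of the wider lists. Depth limits AKR1B10 (38 to 69 counts per library) most.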
